A study of Mus musculus with 2 samples.

Results

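Fibroblasts that carried transcripts of Dpp4 or Pi16 were examined among single CD45+ cells of mouse perigonadal visceral adipose tissue (VAT). There were 161 such cells, 48 from obese VAT and 113 from VAT after caloric restriction (CR), among 9357 cell barcodes in all. They were chosen by their own counts. A barcode had to hold at least 200 genes and at most 6% mitochondrial UMIs (unique molecular identifiers, each standing for 1 captured transcript). The fibroblast genes Dcn, Col3a1, Col1a2 and Clec3b together had to reach 0.5% of its UMIs. Ptprc, which encodes CD45, had to be at 0, and Csf1r (a macrophage receptor) and Cldn5 (an endothelial junction gene) at no more than 1 UMI each. These limits left 355 gated fibroblasts, of which the 161 with at least 1 UMI of Dpp4 or Pi16 are called Dpp4/Pi16+ fibroblasts here. The other 194, 44 obese and 150 CR, are called Dpp4/Pi16- fibroblasts.

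Both groups were male C57BL/6J mice, bought at 6 weeks of age and acclimated for 2 weeks. All were injected each week with 5 mg/kg of an oligonucleotide that silences the LDL receptor and fed a diet with 60% of its energy as fat and 0.3% cholesterol for 24 weeks. CR mice then ate 70% of ad libitum intake of the same diet for 2 weeks, whereas the sample label calls the restriction life-long. Live CD45+ cells were sorted after perfusion and made into 1 library per group with 10x Chromium 3′ v2 chemistry, and the number of mice in each library was not found. With 1 library per group no test of a group difference was possible, so all differences are between these libraries. Intervals are 95% intervals for counting error only, exact binomial for shares and exact Poisson for levels.

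DPP4+ and PI16+ fibroblasts are known from many organs as a population of the adventitia around vessels and of the connective tissue septa. In mouse adipose tissue DPP4+ cells are described as multipotent interstitial progenitors, from which ICAM1+ preadipocytes with genes of lipid handling arise. DPP4 is a membrane peptidase that trims chemokines and incretins, and PI16 is a cysteine-rich secretory family protein at the cell surface.

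The obese library held 5795 barcodes and the CR library 3562, of which 5402 and 3015 were kept. Dpp4/Pi16+ fibroblasts had similar depth in both, with medians of 6007.5 UMIs in obese (range 2818 to 13062) and 5911 in CR (1937 to 21633). Dpp4/Pi16- fibroblasts had medians of 4568 and 5698 UMIs. All 15 genes of a general fibroblast list were detected in Dpp4/Pi16+ fibroblasts of each library. Of 24 leukocyte genes 20 were detected in obese and 22 in CR, summing to 5352 and 3820.4 CPM (the UMIs of a gene per 1000000 UMIs of the pooled cells), with S100a9 at 0 in both and Ptprc at 0 by the rule. Of 10 adipocyte genes 4 and 3 were detected, summing to 16.0 and 13.3 CPM, with Cidec and Retn at 0 in both. Of 28 barcodes that both libraries shared, 1 belonged to a CR Dpp4/Pi16+ fibroblast and none to an obese one.

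Transcripts of leukocyte genes were found in every Dpp4/Pi16+ cell, with medians of 21 UMIs of the list per cell in obese and 18 in CR, and 3 obese and 9 CR cells had over 1% of their UMIs in it. A few cells held many transcripts of another cell type. In 3 obese cells the mesothelial list summed to 89, 43 and 35 UMIs, against 5 in the next cell, and in 1 CR cell to 70 UMIs, against 7 in the next. A further obese cell held 1194 UMIs of Jchain, the joining chain of plasma cell antibodies. The mesothelial list as a whole, with 14 of 16 genes detected in obese and 13 in CR, summed to 665 and 281 CPM. Results that rest on these 5 cells are given with and without them.

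The genes that chose the cells are given as description. Pi16, at chr17:29317680-29330593 on the plus strand of GRCm38, had a level of 1110.0 CPM in obese fibroblasts (interval 996 to 1233) and of 1347 CPM in CR ones (1265 to 1432). Dpp4, at chr2:62330073-62412231 on the minus strand, had 166 CPM (124 to 218) and 116 CPM (92.9 to 143). Pi16 was therefore the gene that selected most cells. Dpp4 without Pi16 was seen in 10 obese and 16 CR cells, Pi16 without Dpp4 in 19 and 65, and both in 19 and 32. At the threshold itself, 11 obese and 37 CR cells had exactly 1 UMI of the pair, while Dpp4/Pi16- fibroblasts had 0. Cells with 4 or more UMIs were 27 of 48 in obese (56.3%) and 51 of 113 in CR (45.1%). The limit of 0.5% for fibroblast genes was not close for Dpp4/Pi16+ cells. Their lowest share of these genes was 1.10% of UMIs in obese and 1.19% in CR. Dpp4/Pi16- fibroblasts came nearer to it, with lowest shares of 0.506% and 0.662%.

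Among the other rule genes, Dcn (decorin, a small proteoglycan that binds collagen) had 14296 CPM in obese Dpp4/Pi16+ fibroblasts and 21231 CPM in CR ones. Clec3b (tetranectin, a plasminogen-binding lectin) had 4395 and 4079 CPM, above the 2898 and 2855 CPM of Dpp4/Pi16- fibroblasts. Pdgfra, the PDGF receptor of fibroblasts and not a gene of the rule, had 246 and 201 CPM, and 214 and 266 CPM in Dpp4/Pi16- fibroblasts.

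Dpp4/Pi16+ fibroblasts were a larger share of the CR library, together with the other fibroblasts. They were 0.889% of kept barcodes in obese (interval 0.656 to 1.18) and 3.75% in CR (3.10 to 4.49). All gated fibroblasts went from 1.70% (1.38 to 2.08) to 8.72% (7.74 to 9.79). Within gated fibroblasts the Dpp4/Pi16+ share was 52.2% (41.5 to 62.7) in obese and 43.0% (36.9 to 49.2) in CR, and these intervals overlap. With every gated fibroblast thinned to 1500 UMIs, which left out none, the shares were 31.5% and 24.7%, again with overlapping intervals.

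**Figure D1:**
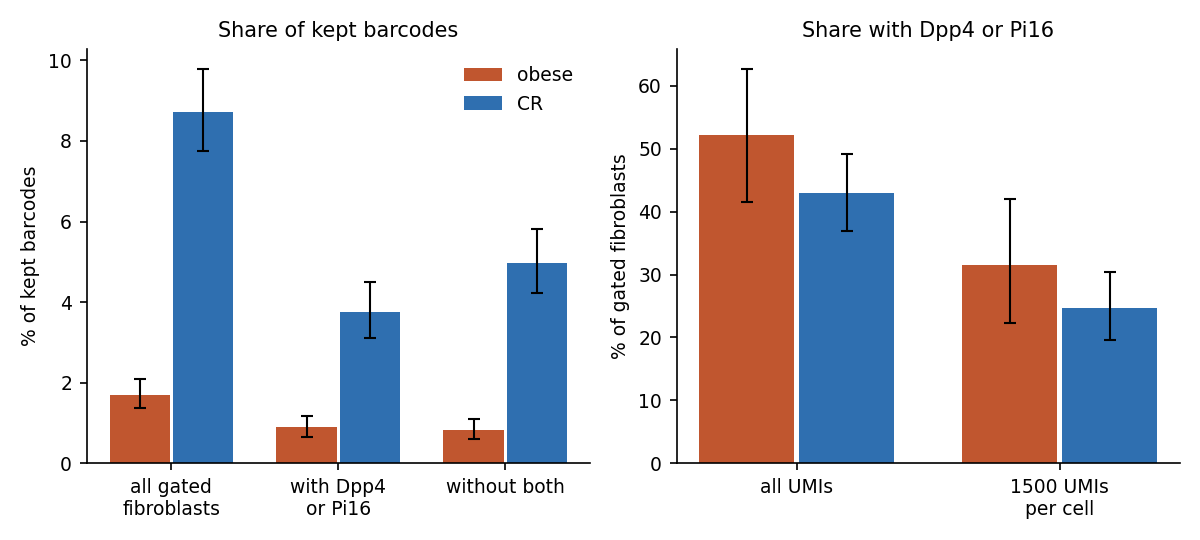
Share of kept barcodes (left, percent) for all gated fibroblasts, those with Dpp4 or Pi16 and those without both, and share of gated fibroblasts with Dpp4 or Pi16 (right, percent) with all UMIs or 1500 UMIs per cell. Bars are single libraries, obese and CR, with exact 95% binomial intervals. The share of kept barcodes with Dpp4 or Pi16 was 0.889% in obese and 3.75% in CR, while the intervals of the shares within fibroblasts overlap.

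The CD45+ sort bears on these shares, since the cells passed a CD45 gate while their Ptprc was at 0 by the rule. Endothelial barcodes (at least 2 Cldn5 UMIs and no Ptprc) also differed, with 19 in obese and 184 in CR. How much of the change in share came from the purity of the sort was not tested. UMIs of the pair were also found in other cells. Of those with at least 2 Csf1r UMIs and Ptprc, a gate for macrophages and monocytes with medians of 8202 and 8039.5 UMIs, 3.68% in obese and 10.0% in CR held a Pi16 UMI. Thinned to 1500 UMIs, 1.31% and 4.89% of these cells held Dpp4 or Pi16, well below the 31.5% and 24.7% of gated fibroblasts.

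Dpp4/Pi16+ fibroblasts were next set beside Dpp4/Pi16- fibroblasts of the same library. The cells were split by their own counts, so these values describe the 2 sets and are not tests. Ratios are log2 ratios of CPM with 5 CPM added to each side, and a gene counted as higher or lower when it differed by at least 2-fold. Of 2876 genes measured in both libraries (at least 20 UMIs over both sets and 50 CPM in 1 of them), 30 (1.04%) were higher and 11 (0.382%) lower in Dpp4/Pi16+ fibroblasts in each library. Of these genes 94 were higher in the obese library and 46 in CR, so the 30 were 31.9% of the obese and 65.2% of the CR ones. The median over all genes measured was -0.06 in obese and 0.01 in CR. The 15 highest and the 11 lowest of these genes are described.

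Secreted signals led the higher genes. Cxcl13 (chr5:95956951-95961068, plus strand), the chemokine that attracts B cells through CXCR5, had 141 CPM in obese Dpp4/Pi16+ fibroblasts and 132 CPM in CR ones, against 4.28 and 4.51 CPM in Dpp4/Pi16- fibroblasts. The log2 ratios were 3.97 and 3.85, and in obese, where the Dpp4/Pi16- set held 1 UMI, the counting interval of the ratio ran from 2.49 to 10.37. Few cells carried it. The 44 obese UMIs lay in 6 cells, 28 of them in 1 cell, and the 99 CR UMIs in 20 cells. A CR fibroblast without Dpp4 and Pi16, left out at 6.97% mitochondrial UMIs, held 135 Cxcl13 UMIs, and with no mitochondrial limit the CR ratio became -0.19. In the Csf1r+ gate, described above, Cxcl13 had 3.51 CPM in the obese library and 114 CPM in the CR library.

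Sema3c, a secreted semaphorin that binds neuropilin receptors, had 205 CPM (158 to 261) in obese and 115 CPM (91.7 to 142) in CR, against 21.4 and 7.90 CPM. It was spread over 27 of 48 obese and 38 of 113 CR cells, with ratios of 2.99 and 3.21. Sfrp4, a secreted binder of Wnt proteins, had 198 and 160 CPM against 21.4 and 11.3 CPM (ratios 2.94 and 3.34). Both were largely genes of these cells within the libraries. Dpp4/Pi16+ fibroblasts held 65.3% and 66.2% of the Sema3c UMIs of all kept barcodes and 76.5% and 60.3% of those of Sfrp4. The related Sfrp2 was less even, with ratios of 4.32 in obese (counting interval 3.19 to 7.08, against 3 UMIs) and 0.89 in CR.

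Surface proteins were the second group. Ackr3, an atypical receptor that takes up the chemokine CXCL12, had 438 CPM (368 to 518) in obese and 304 CPM (266 to 346) in CR, against 89.9 and 48.5 CPM. Cd55, which protects cells from complement, had 269 and 216 CPM against 55.7 and 44.0 CPM, a log2 ratio of 2.17 in both libraries. Most cells carried these genes: Ackr3 was found in 35 of 48 obese and 62 of 113 CR cells and Cd55 in 33 and 63. With 1500 UMIs per cell, Ackr3 was found in 41.7% of obese and 37.2% of CR Dpp4/Pi16+ cells, in 6.82% and 4.67% of Dpp4/Pi16- cells and in 0.105% and 0.213% of the Csf1r+ gate. Tmem100, a small membrane protein known from endothelium, had 314 and 227 CPM against 64.2 and 63.2 CPM.

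Matrix genes and enzymes formed the third group. Col14a1, a collagen that sits on the surface of fibrils, had 422 CPM (353 to 501) in obese and 331 CPM (291 to 375) in CR, against 141 and 94.8 CPM. Pcsk6, a convertase that cleaves growth factor precursors, had ratios of 1.79 and 1.94, and Fndc1, a fibronectin type III domain protein, 2.69 and 1.37. Smpd3, a neutral sphingomyelinase, had 2.02 and 2.29. Gfpt2, the first enzyme of the hexosamine pathway that feeds hyaluronan synthesis, had 285 and 311 CPM against 98.5 and 115 CPM. Ugdh, which makes the other sugar of hyaluronan, was also higher in both libraries (ratios 1.41 and 1.04), so that 2 of the 6 measured hyaluronan genes were higher and none lower.

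The remaining higher genes were Sbsn, Dmkn, Fez1 and Rras2. Sbsn and Dmkn encode suprabasin and dermokine, secreted proteins known from epidermis. Sbsn had 224 CPM in obese and 98.7 CPM in CR, against 0 of 233585 UMIs in obese Dpp4/Pi16- fibroblasts (at least 17.4-fold higher, at a floor of 3 UMIs) and 15.8 CPM in CR ones. Dmkn had 73.6 and 50.7 CPM, at least 5.73-fold above the 0 UMIs of obese Dpp4/Pi16- fibroblasts, and with a ratio of 3.18 in CR against a single UMI (counting interval 2.92 to 10.83). Fez1, an adaptor of kinesin transport, had 92.8 and 74.7 CPM against 17.1 and 13.5 CPM, and Rras2, a Ras family GTPase, had ratios of 1.33 and 1.62.

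The 11 lower genes held markers of lipid handling and secreted plasma proteins. Fabp4, the fatty acid carrier of adipocytes and capillaries, had 918 CPM (815 to 1031) in obese and 1005 CPM (935 to 1080) in CR, against 2166 and 2110 CPM, with ratios of -1.23 and -1.07. Apoe, the apolipoprotein of lipid particles, had 1180.4 and 2036 CPM against 2556 and 4852 CPM. Both genes were also found far outside fibroblasts, Apoe at 11710.1 and 9904 CPM in the Csf1r+ gate and Fabp4 in 40.7% and 68.1% of that gate's cells at 1500 UMIs. Trf, the transferrin gene, was in 47.2% and 35.5% of those cells, against 16.7% and 14.2% of Dpp4/Pi16+ and 20.5% and 32.7% of Dpp4/Pi16- fibroblasts. The leukocyte list, which includes Apoe itself, was at 5352 and 3820.4 CPM in Dpp4/Pi16+ fibroblasts against 7916 and 7366 CPM. Cells with over 1% of their UMIs in it were 3 and 9 against 8 and 34. Apoe is thus part of this difference, and the list is not a separate observation. The part of free RNA in these levels was not tested. Hsd11b1, which regenerates active glucocorticoid in adipose tissue, had 147 and 184 CPM against 548 and 394 CPM. Agt, the precursor of angiotensins, had ratios of -1.71 and -1.60.

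Vtn (vitronectin, an adhesive plasma protein) had ratios of -1.47 and -1.18 and Trf (transferrin, the iron carrier) -1.13 and -1.34. Growth factor and matrix genes were the other named ones. Mdk, the heparin-binding growth factor midkine, had 76.8 and 220 CPM against 270 and 461 CPM, and Fbln7, an adhesive fibulin, 64.0 and 141 CPM against 227 and 291 CPM. Nmb, the peptide neuromedin B, had ratios of -1.66 and -1.26, Mmp11, a stromal metalloproteinase, -1.16 and -1.12, and Sept4, a septin of the cytoskeleton, -2.28 and -1.22. Without the cell of each set with most UMIs of a gene, Trf and Mmp11 were no longer past 2-fold in both libraries, while the other 9 and all 15 higher genes were. Other gates ended further calls, such as Apoe, Fabp4, Hsd11b1, Mdk and Mmp11 with Dpp4 alone. Nmb and Sept4 were lost with 1500 UMIs per cell, and Apoe, Nmb and Vtn without cells with 2 or more mesothelial UMIs. Fbln7 was lost under several alternatives, among them no mitochondrial limit, no cells over 1% of leukocyte UMIs and 20 CPM added. Of the 15 higher genes Gfpt2 was lost with 1500 UMIs per cell and Cxcl13 with no mitochondrial limit. Pericyte and smooth muscle markers moved the same way, summing to 89.6 and 163 CPM in Dpp4/Pi16+ and 313 and 504 CPM in Dpp4/Pi16- fibroblasts, where 1 CR cell held 216 UMIs of the list and the median CR cell had 134 CPM, and their part in the lower genes was not tested.

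**Figure D2:**
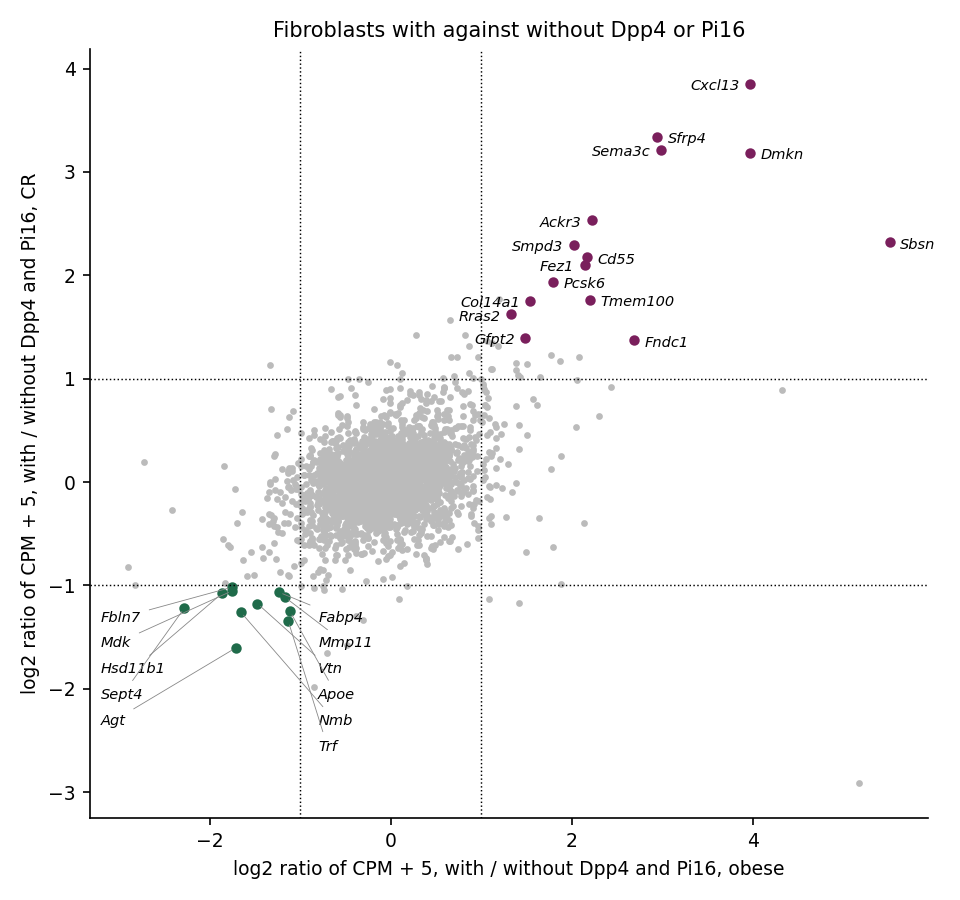
Log2 ratio of CPM with 5 CPM added, Dpp4/Pi16+ over Dpp4/Pi16- fibroblasts, in obese (x axis) and CR (y axis), 1 point per gene of the 2876 measured in both. Purple and green points are the 15 highest and 11 lowest genes past 2-fold (dotted lines) in each library; Cxcl13 lies at 3.97 and 3.85 and Agt at -1.71 and -1.60.

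As lists, genes of interstitial progenitors were higher and genes of committed preadipocytes lower or near even. Of 20 interstitial progenitor genes 12 were measured in both libraries, 8 of them higher and 0 lower, with medians of 1.49 over 15 genes in obese and 1.48 over 12 genes in CR. The list includes Cd34 (665 and 492 CPM against 338 and 210 CPM, just under 2-fold in obese), a sialomucin of progenitors, and Ly6c1, a GPI-anchored surface protein, at 1532 and 1144 CPM against 728 and 441 CPM. Fn1 (fibronectin) was higher by 1.38 and 1.08. Wnt2 and Bmp7 were too few to compare, with 3 and 13 UMIs and 4 and 3 UMIs. Of 18 preadipocyte genes 13 were measured in both, 0 higher and 2 lower (Apoe and Fabp4), with medians of -0.67 and -0.52. Lpl, the lipoprotein lipase, had ratios of -0.87 and -0.54. Pparg, the master regulator of fat cell formation, gave only 3 and 9 UMIs. The lists are no independent evidence, since the cells were split by Dpp4 and Pi16 themselves.

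The same genes are given by the number of UMIs of the pair in the cell. Both the number of UMIs and the named genes come from the split itself, so a gradient from the cells with 0 UMIs is built in and the values are a description. The 15 higher genes together had 629 CPM in obese cells with 0 UMIs, 964 with 1, 1633 with 2 or 3 and 4900.5 with 4 or more, and 503, 939, 1552 and 3612 CPM in CR. The 11 lower genes together went the other way in CR, at 9639, 7198, 5281 and 1740.1 CPM. In obese they were level up to 1 UMI and then fell, at 7072, 7176, 2342 and 1304 CPM. Cd34, which is not among those genes, had 338, 388, 557 and 835 CPM in obese and 210, 326, 492 and 602 CPM in CR. Cd55 stayed at 115 CPM or below up to 3 UMIs in both libraries and reached 451 and 336 CPM with 4 or more. Cells at the threshold of 1 UMI had median depths of 5806 and 5526 UMIs.

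**Figure D3:**
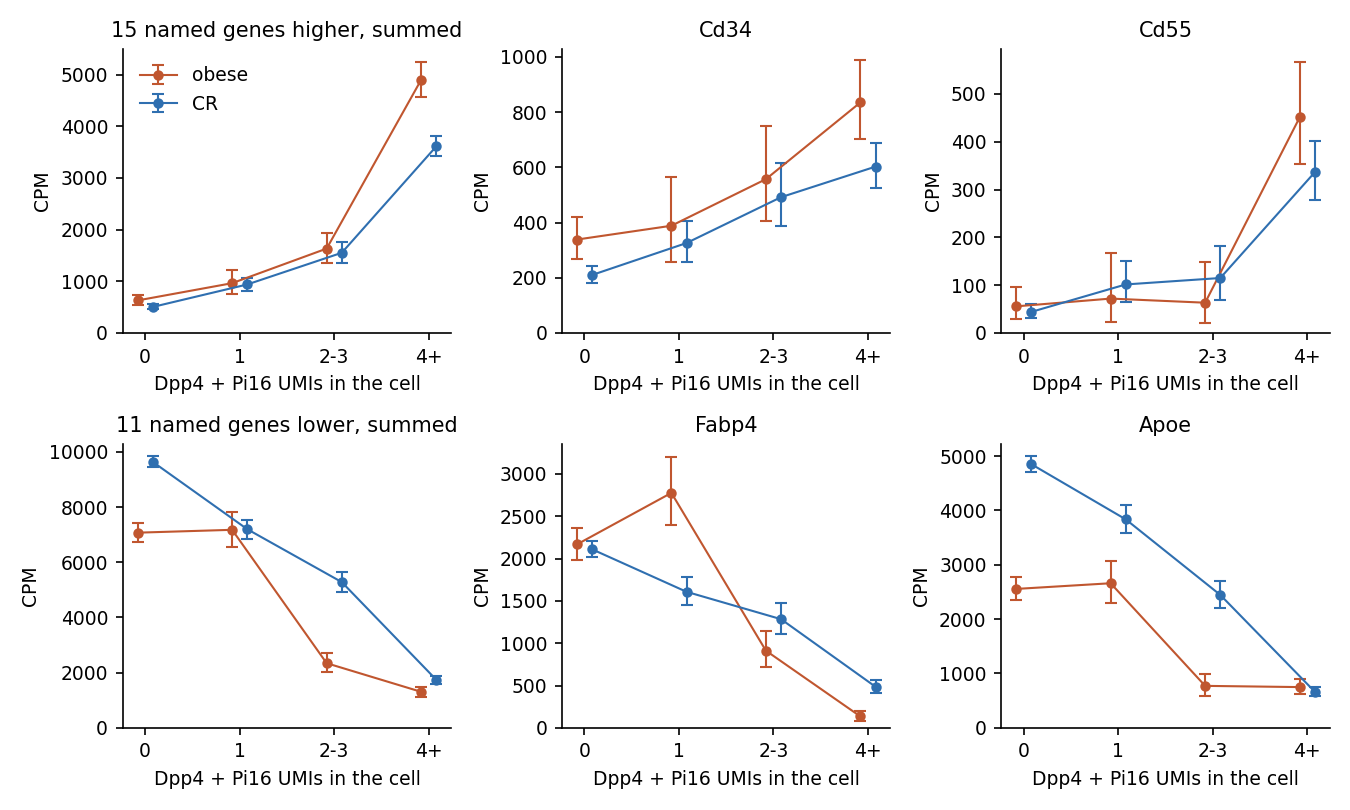
CPM of pooled cells (y axes) by the number of Dpp4 plus Pi16 UMIs in the cell (x axes), in obese and CR, for the 15 higher and 11 lower named genes summed and for Cd34, Cd55, Fabp4 and Apoe. Points are single pools with exact 95% Poisson intervals; with 4 or more UMIs the higher genes reach 4900.5 and 3612 CPM and Fabp4 falls to 134 and 485 CPM.

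The cells in which the 2 genes were detected overlapped only in part. These groups rest on detection, so a cell without a UMI of a gene may still express it. Cells with both genes hold at least 2 UMIs of the pair by definition, so the gradient described above enters here too. How far missed transcripts set these groups was not tested. Dpp4 without Pi16 (10 obese and 16 CR cells) went with 1151 and 561 CPM of the summed higher genes, against 629 and 503 CPM in Dpp4/Pi16- fibroblasts, with intervals that overlap in CR and not in obese, and with 2375 and 2330 CPM of Fabp4. Pi16 without Dpp4 went with 3147 and 1831 CPM, and both genes with 4698 and 4213 CPM. Fabp4 was at 182 and 751 CPM where both were found. Cxcl13 was at 0 UMIs in Dpp4-only cells of both libraries. With so few cells the intervals reached up to 45.2 CPM in obese and 34.5 CPM in CR.

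The comparison of CR with obese asks what 2 weeks of restriction went with in these cells. Dpp4/Pi16+ fibroblasts of CR had more transcripts of 5 of 14 chemokine and cytokine genes, some of them on few obese UMIs. They also had more of Has1 and Tnfaip6 among 6 hyaluronan genes and of Socs3. They had fewer of Thy1 and, under most gates, of the MHC class II genes Cd74 and H2-Aa. Of 3209 genes measured, 74 (2.31%) were at least 2-fold higher in CR and 61 (1.9%) lower, with a median of -0.01. In Dpp4/Pi16- fibroblasts 90 of 3269 genes were higher and 92 lower. The 15 named in each direction had intervals on 1 side of an even ratio, were chosen by the bound nearest to it and are grouped here by role.

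Hyaluronan and matrix turnover genes formed the first of these groups. Has1, a hyaluronan synthase, had 51.2 CPM in obese (29.3 to 83.1) and 281 CPM in CR (245 to 322), found in 6 of 48 and 34 of 113 cells. Tnfaip6 (TSG-6), which crosslinks hyaluronan, had 154 CPM (113 to 204) and 669 CPM (612 to 731), in 25 and 77 cells. Neither pair of intervals overlaps, and the ratios were 2.35 and 2.09. Adamts4, an aggrecan-cleaving protease, had 1 UMI in obese and 45 in CR (ratio 2.99, counting interval 1.68 to 9.56). Prg4 (lubricin, a surface lubricant) had 2 and 42 UMIs (ratio 2.42, counting interval 1.19 to 6.22).

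Mmp3, a metalloproteinase that is commonly induced by inflammatory cytokines, had 25.6 and 112 CPM, and its inhibitor Timp1 170 and 445 CPM. Cilp, a cartilage matrix protein also made by fibroblasts, had 89.6 and 265 CPM. Each of the 3 was past 2-fold in Dpp4/Pi16+ fibroblasts, with ratios of 1.94, 1.37 and 1.52. Dpp4/Pi16- fibroblasts had -0.14, 0.16 and 0.38, a difference that was not tested. Mmp3 levels were below those of Dpp4/Pi16- fibroblasts in both libraries, with ratios of -2.90 in obese and -0.82 in CR. For Timp1 these ratios were -0.56 and 0.65.

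Chemokine genes were higher as well. Ccl2, which recruits monocytes through CCR2, had 92.8 CPM in obese (62.1 to 133) and 421 CPM in CR (376 to 470), and Cxcl1, which attracts neutrophils, 192 CPM (146 to 247) and 543 CPM (491 to 598). No obese but 7 CR cells held 10 or more Ccl2 UMIs. Of 14 measured chemokine and cytokine genes 5 were higher in CR and 0 lower, with a median of 0.64, against 3 of 13 higher, 1 lower and a median of -0.06 in Dpp4/Pi16- fibroblasts. There Il6 (4.16, counting interval 3.05 to 6.90, against 3 UMIs) and Cxcl1 (2.35) had larger ratios than in Dpp4/Pi16+ fibroblasts (1.29 and 1.48), a difference that was not tested. A larger rise from obese was not a higher level in CR. Of the list's 14 ratios of Dpp4/Pi16+ over Dpp4/Pi16- fibroblasts in CR, 8 were below 0 and 6 above, with a median of -0.24. Il6 (-0.98), Cxcl1 (-0.57) and Ccl2 were among those below. In obese, Il6 (1.88) and Cxcl1 (0.31) were above 0 and Ccl2 (-2.83) was below. The other higher genes of Dpp4/Pi16+ fibroblasts were Il6 (60.8 and 156 CPM, of which 15 of 19 obese UMIs were in 1 cell), Cxcl14 (22.4 and 61.3 CPM) and Il33 (22.4 and 52.0 CPM), an alarmin of stromal cells. Cxcl14 and Il33 were low in obese, where 3 UMIs are 9.60 CPM. Cxcl13 had a ratio of -0.09.

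Signalling and acute phase genes completed the higher set. Socs3, the inhibitor of JAK signalling that gp130 cytokines induce, had 275 and 683 CPM, in 21 of 48 and 89 of 113 cells. Nfkbia, the inhibitor of NF-kB that NF-kB itself induces, had 329 and 799 CPM. Ptgs2, the inducible cyclooxygenase, had 12.8 and 68.0 CPM, Ptx3, a soluble pattern receptor, 25.6 and 115 CPM, and F3, the tissue factor that starts coagulation, 70.4 and 275 CPM. Hp, the haemoglobin-binding haptoglobin, had 179 and 508 CPM. All 15 named genes stayed past 2-fold without the cell with most UMIs of the gene in each library and without the 5 cells with mesothelial or Jchain transcripts. Under other gates 6 of them did not. Cxcl1 (0.73), Ptx3 (0.81) and Nfkbia (0.96) were below 2-fold without cells with 2 or more mesothelial UMIs, Nfkbia (0.32) and Prg4 (0.72) with 1500 UMIs per cell, Cilp (0.31) and Prg4 (0.79) with cells chosen by Dpp4 alone, and Timp1 (0.996) with at least 2 UMIs of the pair.

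These differences were partly shared with the other fibroblasts. In Dpp4/Pi16- fibroblasts 13 of the 15 had the same sign and 8 were past 2-fold the same way (Has1, Tnfaip6, Adamts4, Prg4, Ptx3, Cxcl1, Socs3 and Nfkbia). Of these, Adamts4 and Prg4 had 1 obese UMI each there (counting intervals 2.27 to 10.09 and -0.51 to 7.55). Ccl2 had a ratio of 0.29 there, and in obese 147 of its 161 UMIs lay in 1 Dpp4/Pi16- cell. Hp had -0.98. Genes that respond within minutes to digestion and stress were also examined. Of 27 measured immediate early and heat shock genes 2 (Socs3 and Fosb) were higher in CR Dpp4/Pi16+ fibroblasts and 0 lower. Their median was 0.33, and 0.58 without the 5 cells with mesothelial or Jchain transcripts. With all cells, the median was 0.42 in Dpp4/Pi16- fibroblasts, 0.29 in the Csf1r+ gate and 0.57 in endothelial barcodes, so it was above 0 in each. Effects of diet, of tissue handling and of the library cannot be told apart here.

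**Figure D4:**
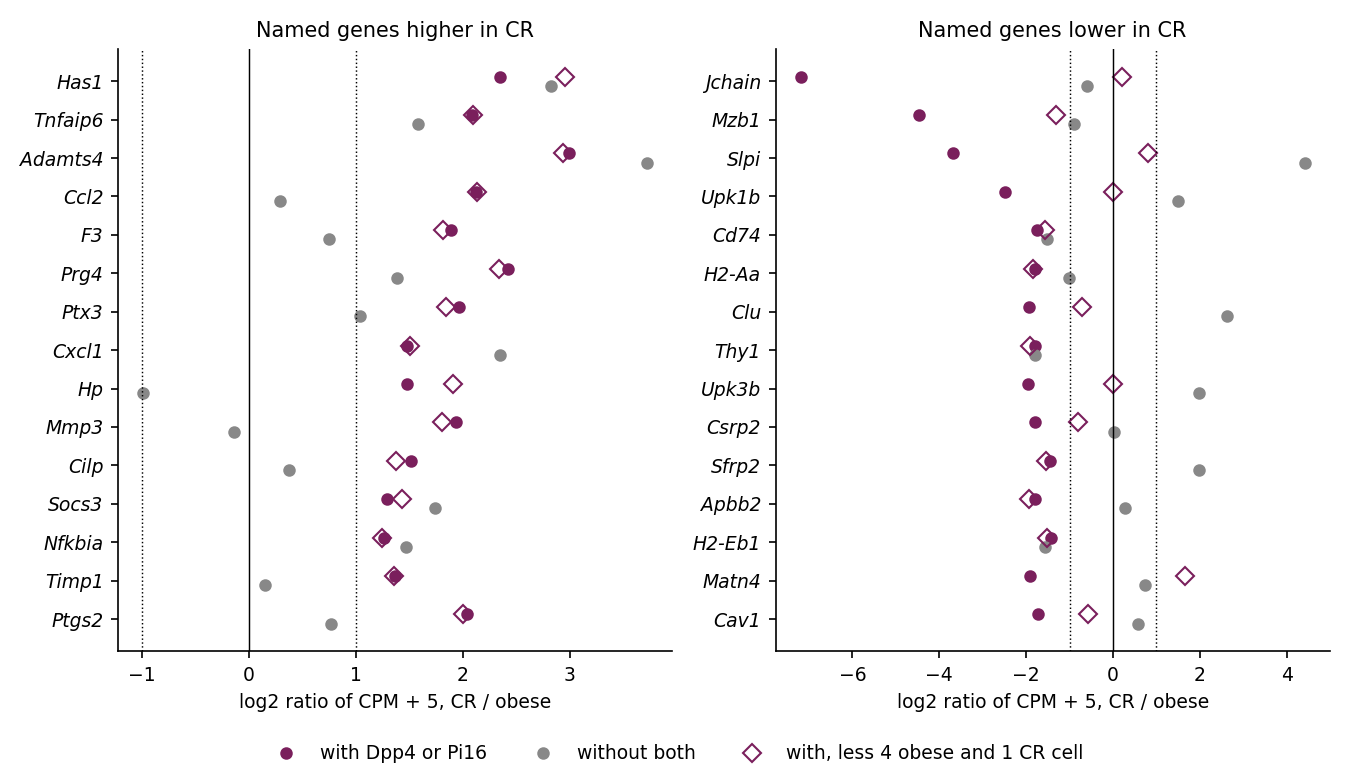
Log2 ratio of CPM with 5 CPM added, CR over obese (x axes), for the 15 named higher and 15 named lower genes. Filled purple points are fibroblasts with Dpp4 or Pi16, grey points those without both, and open diamonds the former without 4 obese and 1 CR cell of mesothelial or Jchain content; Has1 lies at 2.35 in the purple points, while Jchain moves from -7.19 to 0.21 without those cells.

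Promoter windows are shown for 4 of the higher genes because they hold a match to a motif of NF-kB or AP-1, transcription factors of the inflammatory response. The windows are the 250 bases before the RefSeq start on GRCm38.p6, printed 5′ to 3′ on the strand of the gene, and capitals mark matches on either strand to GGG and TTTCC with any 2 bases between (NF-kB) in Cxcl1 and Nfkbia and to TGANTCA (AP-1, the same letters on both strands) in Tnfaip6 and F3. They lie at chr5:90890995-90891244 (plus strand, Cxcl1), chr12:55492648-55492897 (minus strand, Nfkbia), chr2:52037863-52038112 (plus strand, Tnfaip6) and chr3:121723287-121723536 (plus strand, F3).
Cxcl1: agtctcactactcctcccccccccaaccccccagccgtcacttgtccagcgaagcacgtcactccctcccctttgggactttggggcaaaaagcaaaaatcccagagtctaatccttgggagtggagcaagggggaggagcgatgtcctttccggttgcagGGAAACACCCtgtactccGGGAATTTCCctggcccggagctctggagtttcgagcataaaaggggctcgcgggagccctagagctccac
Nfkbia: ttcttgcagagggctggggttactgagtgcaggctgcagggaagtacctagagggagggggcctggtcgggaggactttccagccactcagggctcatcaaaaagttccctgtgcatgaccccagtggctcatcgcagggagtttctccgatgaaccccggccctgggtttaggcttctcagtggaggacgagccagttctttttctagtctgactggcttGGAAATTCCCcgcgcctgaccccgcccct
Tnfaip6: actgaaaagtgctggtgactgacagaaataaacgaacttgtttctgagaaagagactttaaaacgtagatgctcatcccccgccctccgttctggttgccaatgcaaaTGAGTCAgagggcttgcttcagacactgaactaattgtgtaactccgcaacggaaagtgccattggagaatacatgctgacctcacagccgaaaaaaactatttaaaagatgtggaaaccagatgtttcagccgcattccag
F3: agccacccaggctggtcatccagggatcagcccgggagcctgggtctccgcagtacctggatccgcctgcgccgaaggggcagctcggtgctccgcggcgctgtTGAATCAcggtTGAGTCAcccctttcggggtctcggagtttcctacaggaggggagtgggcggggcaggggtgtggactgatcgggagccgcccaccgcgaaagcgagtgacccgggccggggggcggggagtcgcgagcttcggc
RefSeq windows were matched for 11 of the 15 higher genes. The NF-kB letters were in 2 of these 11 windows and the AP-1 letters in 3 (F3, Mmp3 and Tnfaip6), and no window held both. Among all 32851 windows 1.41% held the NF-kB letters and 6.75% the AP-1 letters. The third motif searched, TATAAA, was in 1 of the 11 (Mmp3), against 12.4% of all windows. Of the genes lower in CR, 9 of 15 were matched with 12 windows, and 0 held either of the first motifs. Of the 15 genes higher in Dpp4/Pi16+ than in Dpp4/Pi16- fibroblasts, 11 were matched with 15 windows. Of these windows 5 held the AP-1 letters (33.3%) and 1 the NF-kB letters (6.67%). Dmkn had more than 1 of the 5 windows, and some of its windows overlap and share a match. By gene, the AP-1 letters were in 3 of 11 (27.3%, Dmkn, Gfpt2 and Sbsn), against 7.82% of all genes. A match describes these letters and does not show a bound site.

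Lower genes were fewer once atypical cells were set aside. Cd74, the invariant chain of MHC class II, had 1257 CPM in obese (1136 to 1388) and 369 CPM in CR (327 to 416). H2-Aa and H2-Eb1, class II chains, had 518 and 147 CPM and 352 and 127 CPM, with ratios of -1.79 and -1.44. These calls depended on the cells kept. H2-Eb1 was no longer past 2-fold under 8 alternatives, among them without the cell with most of its UMIs (-0.68), without cells over 1% of leukocyte UMIs (-0.66) and with 1500 UMIs per cell (-0.16). H2-Aa was not with a mitochondrial limit of 4% (-0.92) or without cells with 2 or more mesothelial UMIs (-0.95), nor Cd74 with 1500 UMIs per cell (-0.81). Cd74 was found in 48 of 48 obese and 99 of 113 CR Dpp4/Pi16+ cells, though the cells had no Ptprc. The leukocyte list as a whole had 7 of 13 measured genes lower and 0 higher, with a median of -1.02, and also -1.02 in Dpp4/Pi16- fibroblasts. In the Csf1r+ gate Cd74 went from 24995 to 17864 CPM and H2-Aa from 8886 to 6007 CPM, and that gate held 1903 of 5402 kept barcodes in obese and 470 of 3015 in CR. The part of free leukocyte RNA in the class II values was not tested.

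Thy1, the CD90 antigen of fibroblasts and T cells, had 189 CPM in obese (144 to 243) and 50.7 CPM in CR (35.9 to 69.6), in 27 of 48 and 23 of 113 cells. Its ratio was -1.80, with -1.78 in Dpp4/Pi16- fibroblasts and 0.15 in barcodes with Ptprc. Sfrp2, a secreted Wnt modulator, had 352 and 125 CPM, and Apbb2, an adaptor of the amyloid precursor protein, 86.4 and 21.3 CPM. Neither Sfrp2 nor Apbb2 was past 2-fold with cells chosen by Dpp4 alone. Both had ratios of the other sign in Dpp4/Pi16- fibroblasts (1.98 and 0.27). The difference between those ratios was not tested.

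The other lower genes rested on a few cells. Jchain had 3836 CPM in obese and 21.3 CPM in CR, and its ratio of -7.19 became 0.21 without the 5 cells with mesothelial or Jchain transcripts. Slpi (a protease inhibitor of epithelia), Upk1b and Upk3b (uroplakins of mesothelium), Clu (clusterin, a chaperone of extracellular proteins), Csrp2 (a LIM domain protein), Matn4 (a matrilin) and Cav1 (the coat protein of caveolae) had ratios of -3.68 to -1.73. None of these 7 was past 2-fold lower without the same cells. Mzb1, a chaperone of antibody assembly in plasma cells, had 42 UMIs in obese, 39 of them in 1 cell, and 1 in CR (ratio -4.46, counting interval -11.99 to -4.10).

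Among the progenitor genes, 0 of 15 measured were higher in CR and 1 was lower, Efhd1, a calcium-binding protein of mitochondria, with 131 and 41.3 CPM (ratio -1.56). The list's median was -0.43, with 14 of the 15 ratios below 0, and it was -0.66 over 10 genes in Dpp4/Pi16- fibroblasts. Examples that did not reach 2-fold were Fn1 (2812 and 1455 CPM), Sema3c (ratio -0.81) and Cd34 (-0.43), while Gfpt2 was at 0.12. Of the 13 preadipocyte genes 2 were higher, Icam1 (41.6 and 111 CPM), an adhesion molecule of committed preadipocytes, and Cxcl14. Fabp5, a fatty acid carrier, was lower (ratio -1.25), and the median was 0.30. Fabp4 had a ratio of 0.13. Fibrillar collagens and their processing genes had 1 of 20 higher, 0 lower and a median of -0.16.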

How the data were processed

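Transcript counts of single CD45+ VAT cells were used as deposited, as whole UMI counts per gene and barcode for 27998 genes in 2 libraries. The authors made these counts with Cell Ranger 2.2 on mm10, and the submitters' notes also name Seurat. The paper set aside clusters without CD45 transcripts, which were a larger share of its CR than of its obese cells. It proposes that they likely came from contamination in the cell sort and names other possibilities. The cells described here were not matched to those clusters, and no filter of the authors was reused.

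UMIs of the gated cells were summed per library and set, divided by their total and given as CPM. Each set is 1 pool, so cells were not treated as replicates and no test across cells was run. Log2 ratios used 5 CPM added, genes with at least 20 UMIs over 2 pools and 50 CPM in 1, and a limit of 2-fold. Counting intervals of a ratio are exact, conditional on the summed UMIs and without added CPM. PCR copies were collapsed by UMI, and intervals do not cover differences between mice or captures. Symbols with more than 1 identifier were left out, which removed 5 of 656 entries in 35 gene lists. No doublet caller was run; cells of high UMI total were left out in an alternative. The members and lists were chosen with earlier results of these data known.

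Named genes are those of the gate, the up to 15 genes per direction past 2-fold in both libraries by the smaller ratio, the 15 per direction in CR against obese by the interval bound nearest to an even ratio, and the larger ratios and defining genes of lists. Gene models and genes of ribosomes, mitochondria, haemoglobin and immunoglobulins were not named. Promoters are RefSeq windows on GRCm38.p6, and gene positions are from GENCODE on GRCm38. Alternatives changed 1 choice at a time in the gate, the totals (edgeR 4.0.16 TMM factors among them), the added CPM and the filter. Python 3.11.15, numpy 2.4.6, scipy 1.17.1, pandas 2.3.3 and matplotlib 3.10.9 were used, and the ratio step was tested on simulated data.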

Additional observations from a re-analysis of the deposited data

Results flagged for a closer look

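Between Dpp4/Pi16+ and Dpp4/Pi16- fibroblasts, 4 genes were at least 2-fold higher in one library and at least 2-fold lower in the other. Hp, which encodes haptoglobin, had log2 ratios of -1.33 in obese and 1.13 in CR. Slpi, a protease inhibitor, had 5.18 (counting interval 3.95 to 8.89, against 2 UMIs) and -2.91, but 84 of its 152 UMIs in obese Dpp4/Pi16+ fibroblasts and 240 of its 251 UMIs in CR Dpp4/Pi16- fibroblasts were each in 1 cell. Ntrk2, the receptor of the neurotrophin BDNF, had 1.09 and -1.13 on 16 and 5 UMIs in obese and 23 and 65 in CR. Tns3, an adaptor of focal adhesions, had 1.42 and -1.17 on 17 and 4 UMIs and 16 and 48. With 1 library per group the difference was not tested for any of the 4.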

How the results depend on the processing

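Of 22 alternatives, 20 were planned and 2, without the 5 cells of high mesothelial or Jchain content (and 1 Dpp4/Pi16- cell) and without the highest cell of each gene, were chosen after seeing the data. Over them 106 shares and counts stayed close to the reported value and 34 moved, and of the ratios of named genes 1672 stayed close, 119 moved and 13 changed sign. With at least 2 UMIs of the pair, the CR shares were 2.52% of kept barcodes and 33.6% of fibroblasts, 49 genes were higher and 27 lower in Dpp4/Pi16+ fibroblasts, and 127 were higher in CR. With Pi16 alone 18 genes were lower in Dpp4/Pi16+ fibroblasts, 144 were higher in CR, and the CR ratios turned positive for Slpi (1.68), Upk1b (1.35), Clu (1.58), Upk3b (2.65) and Matn4 (1.80). With Dpp4 alone the shares were 0.537% and 1.59% of kept barcodes and 39.7% and 24.2% of fibroblasts in obese and CR, with 20 genes lower in Dpp4/Pi16+ fibroblasts, 148 higher in CR and 126 lower. Thinned to 1500 UMIs, the shares were 0.537% and 2.16% of kept barcodes and 31.5% and 24.7% of fibroblasts, 17 genes were higher and 24 lower in Dpp4/Pi16+ fibroblasts, 36 were lower in CR, and Cav1 was at 1.01. Without cells with 2 or more mesothelial UMIs, the shares were 0.629% and 2.65% of kept barcodes, 124 genes were higher in CR, and Slpi (0.61) and Matn4 (1.17) changed sign. Without the cells of high mesothelial or Jchain content Jchain (0.21), Slpi (0.80) and Matn4 (1.66) changed sign, and without the highest cell of each gene Jchain did (0.17) and 33 genes were lower in CR. With no mitochondrial limit Cxcl13 in CR was at -0.19, where 1 cell held 135 UMIs. In CR against obese, 42 genes were higher and 37 lower with 20 CPM added, 116 lower with totals without ribosomal, mitochondrial and haemoglobin genes, 717 higher and 618 lower with no filter, and 36 and 26 with 40 UMIs and 100 CPM. With no filter 93 genes were higher and 61 lower in Dpp4/Pi16+ fibroblasts. Beyond the cells and filters named, the cause was not tested. Depth limits what 48 obese cells can show, since 3 UMIs of their pool are 9.60 CPM. No paired analysis was possible because each group has 1 library, and leaving out a replicate was not possible for the same reason.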

Other observations

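Elastic fibre and microfibril genes leaned towards Dpp4/Pi16+ fibroblasts, with medians of 0.34 over 13 genes in obese and 0.36 over 14 in CR, but Emilin2 alone, an elastin-associated glycoprotein, was past 2-fold in both (173 and 149 CPM against 51.4 and 71.1 CPM). Mfap5, a microfibril protein, had ratios of 0.73 and 0.91, and Fbn1, the fibrillin of microfibrils, 1.02 and 0.95. Igfbp6, a binder of IGF2, was higher in both libraries, with 2294 CPM in obese and 1489 CPM in CR against 848 and 733 CPM, but its CR ratio of 1.02 passed below 2-fold (0.96) without the cells of mesothelial or Jchain content. Cd248 (endosialin, a stromal surface glycoprotein) had 518 and 309 CPM against 223 and 86.9 CPM. Complement C3 was near even, with ratios of 0.21 and 0.23, and differed little between CR and obese (0.07).

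In CR against obese, 0 of 17 genes of the glucocorticoid and fasting response were past 2-fold in Dpp4/Pi16+ fibroblasts (median 0.12), and 0 of 18 genes of the unfolded protein response (median 0.23, and 0.63 without the 5 cells of mesothelial or Jchain content). The 16 interferon response genes measured had a median of -0.29 that turned to 0.15 without the same 5 cells. Ifit1, an RNA-binding effector of that list, was lower in CR (102 and 34.7 CPM, with 10 of 32 obese UMIs in 1 cell), with a ratio of -1.44 that stayed past 2-fold without those cells (-1.12). The genes named here were taken from the lists by the size of their ratios, so their values are a description.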
